A study of Homo sapiens with 9 samples.

Results

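Genes that respond to the sterol regulatory element-binding proteins (SREBPs) were followed across cultures of HEK293, a line derived from human embryonic kidney, that differed by label in overexpression of the zinc-sensing receptor GPR39 and in exposure to its agonist TC-G-1008. The set held 4 genes of cholesterol homeostasis, INSIG1, HMGCS1, SQLE and STARD4, and 4 genes of fatty acid synthesis, SCD, ELOVL6, FADS2 and ACLY. They were found by gene symbol in the annotation of the array platform, which gave 9 probe sets for the 8 genes, 2 of them for SCD, among 16098 named probe sets for 14884 genes. The full array table holds 53617 probe sets. All 9 member probe sets passed the filter on low signal and were tested among 33376 probe sets. Symbols chose the genes and no measured value entered that rule, although the choice was made with earlier results of these arrays known.

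RNA was measured on 9 Affymetrix arrays, 3 in each of 3 groups. The agonist group carries a GPR39 overexpression label and was given 1 uM TC-G-1008, and its labels do not say whether cumate was present. The GPR39 group has the same overexpression label with 0.03 mg/mL cumate, a small molecule that switches on engineered promoters. The mock group is naive HEK293 cells labelled as mock control and without cumate. The GPR39 probe set was at or below the 40th percentile of its array, the level used as the filter on low signal, on all 9 arrays. It measured 2.58 ± 0.11 in agonist, 2.58 ± 0.04 in GPR39 and 2.47 ± 0.07 in mock arrays (log2, SD, n = 3 each). The values of this 1 probe set do not bear out the overexpression label, and no other probe set was read for the receptor. The agonist and GPR39 groups are therefore named by label alone. All groups share 1 cell line and a medium with fetal bovine serum, and no exposure time is given. Neither cumate nor the agonist was given to a group without the receptor label, so effects tied to the receptor label and to cumate cannot be told apart in GPR39 against mock. In agonist against GPR39 the agonist and a possible lack of cumate cannot be told apart. Replicates are called biological with no word on separate cultures, and the spread that the p-values measure may therefore be technical.

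SREBPs are transcription factors made as precursors in the membrane of the endoplasmic reticulum. The escort protein SCAP carries them to the Golgi, where proteases release the active part, and the INSIG proteins hold SCAP back when sterols are plentiful. SREBP-2 mainly drives genes of cholesterol synthesis and uptake, whereas SREBP-1c mainly drives genes of fatty acid synthesis and desaturation, with overlap between them. Because INSIG1 is both a brake on this system and one of its target genes, its mRNA is a common readout of SREBP activity.

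In agonist against GPR39, the fatty acid genes fell and the sterol genes split. INSIG1, HMGCS1 and STARD4 were higher in agonist than in GPR39 arrays, by 2.11-fold, 1.37-fold and 1.30-fold, while SQLE was lower. SCD, ELOVL6, FADS2 and ACLY were all lower, ELOVL6 at 56.2% of its GPR39 level. All 8 genes passed the test in agonist against GPR39, where 9.06% of the 33376 probe sets tested passed. Of the 11916 named genes tested, 3.64% were called higher and 9.68% lower there. In GPR39 against mock 1 gene, SCD, passed and was lower, where 1.17% of tested probe sets passed and 0.604% of named genes were called lower. When the changes of these comparisons were tested against each other, INSIG1 alone of the 8 passed, where 1.03% of tested probe sets did. For SCD, FADS2 and SQLE the adjusted p of that test was 0.880, 0.751 and 0.622. In RNA from whole cultures, fewer cells with a transcript and less of it per cell cannot be told apart.

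Promoter sequences are shown because SREBPs usually act beside the factors NF-Y, which binds CCAAT, and Sp1, which binds GC boxes such as GGGCGG. The 4 genes shown are INSIG1 and HMGCS1 of the sterol genes and SCD and ELOVL6 of the fatty acid genes, the pair with the largest log2 change between agonist and GPR39 in each arm. Each sequence is the 250 bases upstream of a RefSeq start site in GRCh38.p14, read 5′ to 3′ on the strand of the gene, with capitals marking CCAAT, its reverse complement ATTGG, and the E-box CACGTG.
INSIG1, chr7:155297628-155297877, plus strand: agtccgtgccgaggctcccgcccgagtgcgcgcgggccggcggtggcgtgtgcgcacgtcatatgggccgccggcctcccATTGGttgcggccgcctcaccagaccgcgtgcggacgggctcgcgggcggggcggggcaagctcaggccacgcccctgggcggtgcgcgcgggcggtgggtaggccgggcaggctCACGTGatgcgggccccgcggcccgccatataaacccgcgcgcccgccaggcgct
HMGCS1, first start site, chr5:43313413-43313662, minus strand: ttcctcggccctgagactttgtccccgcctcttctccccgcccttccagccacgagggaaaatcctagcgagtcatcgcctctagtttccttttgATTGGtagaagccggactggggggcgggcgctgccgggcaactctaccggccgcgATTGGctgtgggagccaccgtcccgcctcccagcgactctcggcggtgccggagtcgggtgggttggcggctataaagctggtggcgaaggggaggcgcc
SCD, chr10:100346983-100347232, plus strand: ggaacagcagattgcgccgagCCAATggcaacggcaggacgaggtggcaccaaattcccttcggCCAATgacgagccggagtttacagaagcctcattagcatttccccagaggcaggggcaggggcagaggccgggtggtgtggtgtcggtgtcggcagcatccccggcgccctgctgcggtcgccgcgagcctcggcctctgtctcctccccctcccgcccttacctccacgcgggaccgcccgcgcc
ELOVL6, chr4:110198616-110198865, minus strand: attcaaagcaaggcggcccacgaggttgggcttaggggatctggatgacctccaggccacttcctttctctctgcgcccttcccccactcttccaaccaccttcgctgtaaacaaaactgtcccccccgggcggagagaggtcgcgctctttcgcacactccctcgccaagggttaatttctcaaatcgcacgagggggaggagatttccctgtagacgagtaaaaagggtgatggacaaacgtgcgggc

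Both strands of these windows were searched for TCACCCCAC, a core form of the sterol regulatory element, its relaxed form TCACNCCAC, which includes it, and for CCAAT (NF-Y), GGGCGG (a GC box), CACGTG (an E-box), TGACGTCA (a cAMP response element) and TGANTCA (an AP-1 element). INSIG1 held 1 CCAAT on the reverse strand, 5 GGGCGG and 1 CACGTG. HMGCS1 held 2 CCAAT and 2 GGGCGG at its first start site and no CCAAT at its second. STARD4 held 2 CCAAT and 1 GGGCGG. SCD held 2 CCAAT and 2 GGGCGG, while ELOVL6 held no CCAAT and 1 GGGCGG. ACLY held 2 CCAAT at each of its 2 start sites, and FADS2 held none at either of its 2. The 2 sterol element forms, the cAMP response element and the AP-1 element had no match in these windows. SQLE was not among the genes searched. Among 35116 human promoter windows of the same length, 32% held CCAAT, 42.6% GGGCGG, 6.34% CACGTG, 0.883% TCACNCCAC, 0.362% TCACCCCAC, 1.65% TGACGTCA and 6.57% TGANTCA. A match is a run of letters, not a shown binding site.

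The arrays were alike in scale, with median log2 signals of 3.13 to 3.22. Arrays of a group correlated at 0.984 to 0.990 in mock, 0.989 to 0.991 in GPR39 and 0.987 to 0.989 in agonist, across probe sets. Mock replicate 1 stood nearer to the GPR39 arrays (mean r 0.988) than to the other mock arrays (mean r 0.985), and results that turn on it are given without it. Of the HEK293 and embryonic kidney markers, 6 of 10 had a named probe set and all 6 passed the filter. Their summed linear signal was 601.5 to 652.9 in agonist, 747.3 to 753.6 in GPR39 and 901.4 to 992.9 in mock, and 1 of the 6 was lower in agonist than in GPR39 and 3 were lower in agonist than in mock, where 9.68% and 14.0% of all named genes tested were lower. Of 6 named hepatocyte markers, AHSG, APOA1 and TTR passed the filter, and ALB and APOB were at or below the 40th percentile on all 9 arrays. Their summed linear signal was 54.9 to 62.0 in agonist, 51.4 to 60.7 in GPR39 and 51.5 to 60.5 in mock. Of 4 named adipocyte markers, LEP, LPL and PLIN1 passed and CIDEC was at or below that percentile throughout, with sums of 27.7 to 31.2 in agonist, 25.5 to 30.0 in GPR39 and 27.6 to 28.4 in mock. No marker of these lists passed the test in any comparison, and both named fibroblast markers, DCN and LUM, were at or below the percentile on all 9 arrays. Leukocyte markers, 5 of 6 named, summed to 246.0 to 286.4 in agonist, 218.2 to 221.3 in GPR39 and 112.3 to 138.6 in mock, with CD53 also at or below it throughout. Most of that sum was CD68, a lysosomal gene, with mean log2 signals of 7.90, 7.56 and 6.66 in these groups. CD14, LAPTM5 and TYROBP averaged at most 3.53 in any group and passed in no comparison. CD68 was higher in GPR39 than in mock (0.90 ± 0.12, adjusted p = 0.0124), where 1.03% of named genes were. It was also higher in agonist than in mock (1.23 ± 0.12, adjusted p = 0.0004), where 7.82% were. The part of these shifts in the lipid gene results was not tested.

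**Figure D1:**
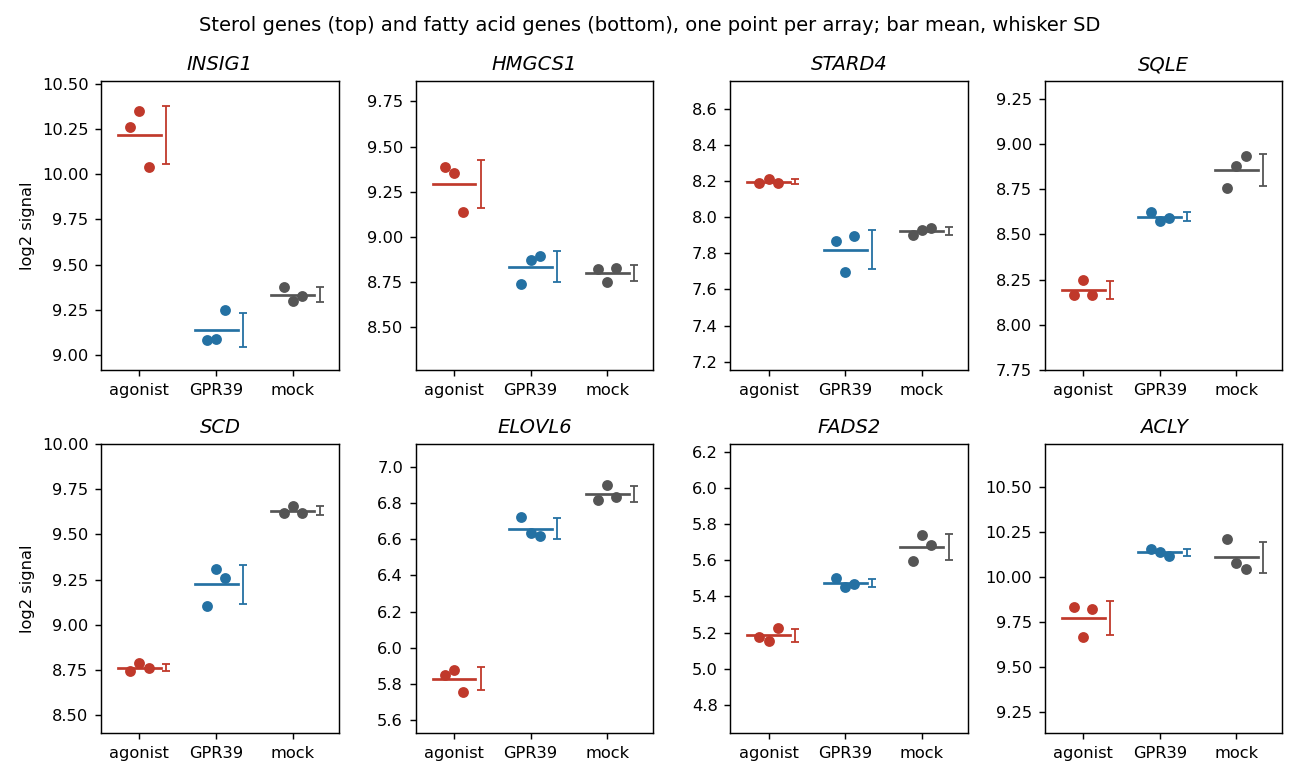
The log2 signal of each gene is plotted per array for the agonist, GPR39 and mock groups (points; bar, mean; whisker, SD, n = 3). Every vertical axis spans 1.6 log2 units. INSIG1, HMGCS1 and STARD4 are highest in the agonist arrays, and SQLE and the 4 fatty acid genes are lowest there.

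INSIG1 encodes the endoplasmic reticulum protein that retains SCAP when sterols are abundant. Its log2 signal was 10.26, 10.35 and 10.04 in the agonist arrays, 9.08, 9.09 and 9.25 in the GPR39 arrays, and 9.38, 9.30 and 9.32 in the mock arrays. The agonist arrays were the highest, and the GPR39 arrays all lay below mock. INSIG1 rose by 1.08 ± 0.09 log2 in agonist against GPR39 (SE, 95% interval 0.86 to 1.29, adjusted p = 0.000661). A higher change was found at 250 of the 33376 probe sets tested. Against mock it was 0.88 ± 0.09 higher, or 1.84-fold (adjusted p = 0.000728). For GPR39 against mock the INSIG1 difference was -0.19 ± 0.09 and did not pass (adjusted p = 0.387).

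HMGCS1 is the cytosolic synthase that makes HMG-CoA early in cholesterol synthesis. It measured 9.39, 9.35 and 9.14 in agonist, 8.74, 8.87 and 8.90 in GPR39, and 8.82, 8.75 and 8.83 in mock arrays. The agonist arrays stood apart, and the other groups overlapped. The change in agonist against GPR39 was 0.46 ± 0.09 (95% interval 0.26 to 0.66, adjusted p = 0.0159), and against mock it was 0.49 ± 0.09 (adjusted p = 0.00691). Against GPR39 the HMGCS1 call was lost without GPR39 replicate 1 (adjusted p = 0.0609), GPR39 replicate 2 (0.0504) or agonist replicate 1 (0.0519), with the change between 0.41 and 0.53 over the 9 arrays left out in turn. GPR39 against mock gave 0.03 ± 0.09 (adjusted p = 0.886).

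STARD4, a carrier that moves cholesterol between membranes, measured 8.19, 8.21 and 8.19 in agonist, 7.87, 7.70 and 7.90 in GPR39, and 7.90, 7.93 and 7.94 in mock arrays. Again the agonist arrays were highest, and GPR39 replicate 2 was the lowest of all. It rose by 0.38 ± 0.07 against GPR39 (95% interval 0.21 to 0.54, adjusted p = 0.0159), a call lost without GPR39 replicate 2 (adjusted p = 0.0519). Against mock STARD4 was 0.27 ± 0.07 higher (adjusted p = 0.0364). That call was lost when any mock or agonist array or GPR39 replicate 1 was left out, with adjusted p between 0.0562 and 0.0932. It was also lost with arrays centred on their median (0.0728), without the filter (0.0611) and with only agonist and mock fitted (0.0555). GPR39 minus mock was -0.10 ± 0.07 for STARD4 (adjusted p = 0.548).

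SQLE, the squalene epoxidase that catalyses the first oxygenation of sterol synthesis, went the other way from these 3 genes. Its values were 8.17, 8.25 and 8.16 in agonist, 8.62, 8.58 and 8.59 in GPR39, and 8.76, 8.88 and 8.93 in mock arrays. The 3 groups did not overlap and were ordered with mock highest and agonist lowest. SQLE fell by 0.40 ± 0.07 log2 in agonist against GPR39 (95% interval -0.56 to -0.25, adjusted p = 0.0109). In agonist against mock it was at 63.1% of the mock level (-0.66 ± 0.07, adjusted p = 0.000642). The step between GPR39 and mock, -0.26 ± 0.07, did not pass (adjusted p = 0.141).

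Among the fatty acid genes, SCD encodes the delta-9 desaturase that makes oleate and palmitoleate. The probe set used for it measured 8.74, 8.79 and 8.76 in agonist, 9.10, 9.31 and 9.26 in GPR39, and 9.62, 9.66 and 9.62 in mock arrays. The groups formed separate steps, with mock at the top. SCD fell by 0.46 ± 0.07 in agonist against GPR39 (adjusted p = 0.00712), and in agonist against mock it was at 54.8% of the mock level (-0.87 ± 0.07, adjusted p = 0.000189). It was also lower in GPR39 than in mock, with a change of -0.41 ± 0.07 (adjusted p = 0.0401). This last call was lost in 8 of the 9 fits that left out 1 array, all but the one without mock replicate 1 (adjusted p = 0.0424 without it, up to 0.142 without the others).

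The other SCD probe set measured 3.73, 3.60 and 3.52 in agonist, 3.92, 3.93 and 3.74 in GPR39, and 4.25, 3.95 and 4.33 in mock arrays. Its groups had the same order without overlap. Of its differences, agonist against mock passed (-0.56 ± 0.11, adjusted p = 0.0132). Agonist against GPR39 (-0.25 ± 0.11, adjusted p = 0.244) and GPR39 against mock (-0.32 ± 0.11, adjusted p = 0.258) did not.

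ELOVL6, the elongase that turns palmitate into stearate, had the largest fall of the 8 genes. It measured 5.85, 5.88 and 5.75 in agonist, 6.73, 6.64 and 6.62 in GPR39, and 6.82, 6.90 and 6.83 in mock arrays. The agonist arrays lay far below the others, and the GPR39 arrays all lay just below mock. Its change in agonist against GPR39 was -0.83 ± 0.07 (95% interval -0.99 to -0.68, adjusted p = 0.000451), with 261 of 33376 probe sets lower still. Against mock ELOVL6 was at 49.2% of the mock level in agonist (-1.02 ± 0.07, adjusted p = 6.54e-05). GPR39 minus mock was -0.19 ± 0.07 (adjusted p = 0.246).

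FADS2, the delta-6 desaturase of polyunsaturated fatty acids, measured 5.18, 5.15 and 5.22 in agonist, 5.50, 5.45 and 5.47 in GPR39, and 5.60, 5.74 and 5.68 in mock arrays. The 3 groups were again separate and in the same order as SCD. FADS2 fell by 0.29 ± 0.06 in agonist against GPR39 (adjusted p = 0.0286). That call was lost without any 1 of the GPR39 or agonist arrays, with adjusted p from 0.0507 to 0.0970. In agonist against mock the change was -0.49 ± 0.06 (adjusted p = 0.00181), and in GPR39 against mock the difference was -0.20 ± 0.06 (adjusted p = 0.210).

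ACLY, the ATP citrate lyase that supplies cytosolic acetyl-CoA to both fatty acid and sterol synthesis, measured 9.83, 9.67 and 9.82 in agonist, 10.15, 10.14 and 10.11 in GPR39, and 10.21, 10.08 and 10.04 in mock arrays. Only the agonist arrays stood apart, below the other groups, which overlapped. It fell by 0.36 ± 0.08 in agonist against GPR39 (adjusted p = 0.0229) and by 0.33 ± 0.08 in agonist against mock (adjusted p = 0.0206). Leaving out any GPR39 array or agonist replicate 2 ended the call against GPR39 (adjusted p from 0.0604 to 0.0794). Leaving out mock replicate 1 or 2 or agonist replicate 2 ended the call against mock (0.0514 to 0.0557), as did centring on the 75th percentile (0.0915) and fitting only agonist and mock (0.0712). GPR39 against mock gave 0.03 ± 0.08 for ACLY (adjusted p = 0.902).

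**Figure D2:**
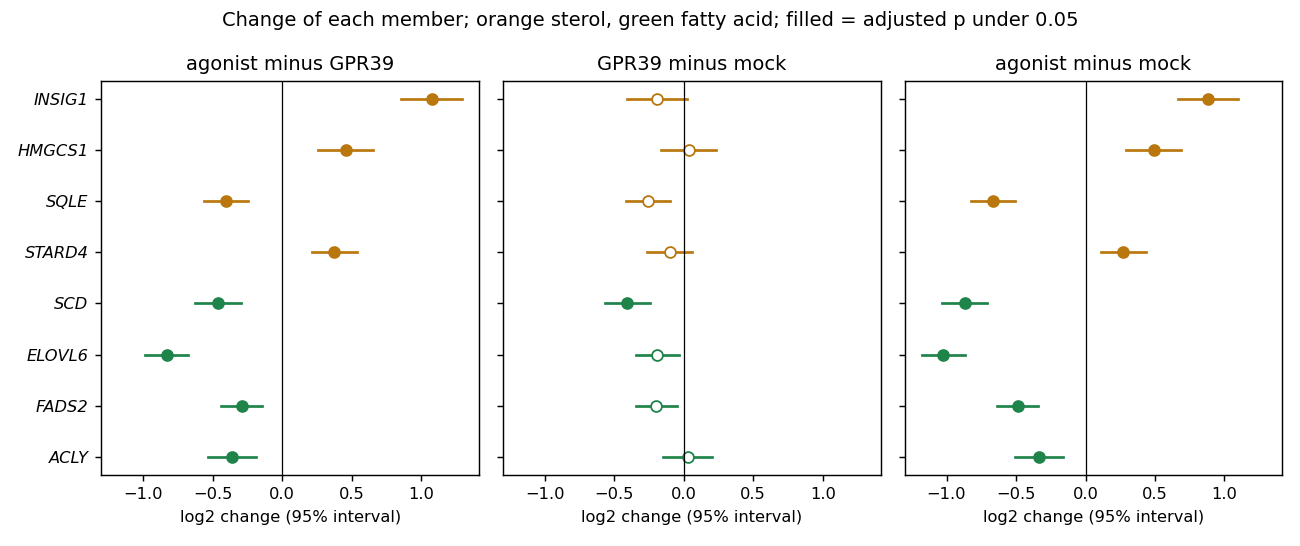
Log2 change with its 95% interval is shown for each gene in agonist minus GPR39, GPR39 minus mock and agonist minus mock (orange, sterol genes; green, fatty acid genes; filled points, adjusted p under 0.05). In the comparisons with agonist all 8 points are filled, from -0.83 for ELOVL6 to 1.08 for INSIG1 in agonist minus GPR39, while in GPR39 minus mock only SCD is filled.

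Over the set, 3 genes were higher and 5 lower in agonist than in GPR39, and all 8 passed the test, against 9.06% of the probe sets tested (3.12% higher, 5.95% lower). Among named genes these shares were 3.64% higher and 9.68% lower. No member's agonist arrays overlapped its GPR39 arrays, a separation found for 13.5% of tested probe sets in the higher and 16.5% in the lower direction. The median log2 change was 0.42 for the 4 sterol genes and -0.41 for the 4 fatty acid genes, beside -0.03 over all 11916 named genes tested. The rise did not extend to the 13 other sterol synthesis enzymes tested, which had a median of -0.29. The 15 other tested genes of fatty acid synthesis, elongation and desaturation had a median of -0.13. The genes were chosen with earlier results of these arrays known, so the counts and medians in this paragraph are a description and not a test of the set. INSIG1, SQLE, SCD and ELOVL6 passed under each alternative setting tried, and HMGCS1, STARD4, FADS2 and ACLY did not. For agonist against mock, which uses the same agonist arrays, INSIG1, HMGCS1 and STARD4 were higher and the other 5 genes lower, where 15.0% of tested probe sets passed (6.11% higher, 8.94% lower). Named genes were 7.82% higher and 14.0% lower in that comparison. Of the probe sets called there, 40.6% were higher, against 56.2% when arrays were centred on their 75th percentile. All 8 were again without overlap, as were 14.8% of tested probe sets in the higher and 16.2% in the lower direction. Medians there were 0.38 for the sterol genes and -0.68 for the fatty acid genes, beside -0.01 over the named genes. For the 13 other sterol synthesis enzymes and the 15 other fatty acid genes they were -0.34 and -0.24. For GPR39 against mock 1 of 8 passed, where 1.17% of tested probe sets did (0.749% higher, 0.422% lower). Named genes were 1.03% higher and 0.604% lower in that comparison. The 391 probe sets called there became 108 to 1323 with 1 array left out, the most without mock replicate 1. Of the 391, 63.9% were higher, against 74.7% of those called with that centring. Without mock replicate 1 the direction turned, with 31.4% of the 1323 calls higher. The GPR39 arrays lay wholly below mock for 6 of the 8 genes and wholly above for 0, where 9.28% of tested probe sets lay wholly below and 11.4% wholly above. The medians were -0.15 for sterol and -0.20 for fatty acid genes, beside 0.02 over the named genes.

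Whether the change in agonist minus GPR39 differed from the change in GPR39 minus mock was tested directly, as the difference of these steps. Both steps use the GPR39 arrays, so an array that reads low in that group enters them with opposite signs. INSIG1 passed, with a difference of 1.27 ± 0.16 (95% interval 0.89 to 1.65, adjusted p = 0.0162), where 1.03% of tested probe sets passed (0.434% with a positive and 0.593% with a negative difference). It was lost without mock replicate 2 (adjusted p = 0.0509) or without GPR39 replicate 1 (0.0984), 2 (0.101) or 3 (0.0634). ELOVL6 came next at -0.64 ± 0.12 and did not pass (adjusted p = 0.0536). For SCD the steps differed by -0.05 ± 0.12, with a 95% interval of -0.34 to 0.23 (adjusted p = 0.880). The remaining 5 genes lay between -0.39 for ACLY and 0.48 for STARD4, with adjusted p from 0.130 to 0.751.

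The wider lipid pathways were read from 7 gene lists. Leaving out the 8 members, 57 of their 99 genes could be tested. In agonist against GPR39, 3 of these were higher and 14 lower, with a median of -0.20, where 3.64% of named genes were higher and 9.68% lower. In agonist against mock 5 were higher and 22 lower with a median of -0.25, where 7.82% of named genes were higher and 14.0% lower. GPR39 against mock gave 1 higher and 1 lower, where 1.03% of named genes were higher and 0.604% lower.

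**Figure D3:**
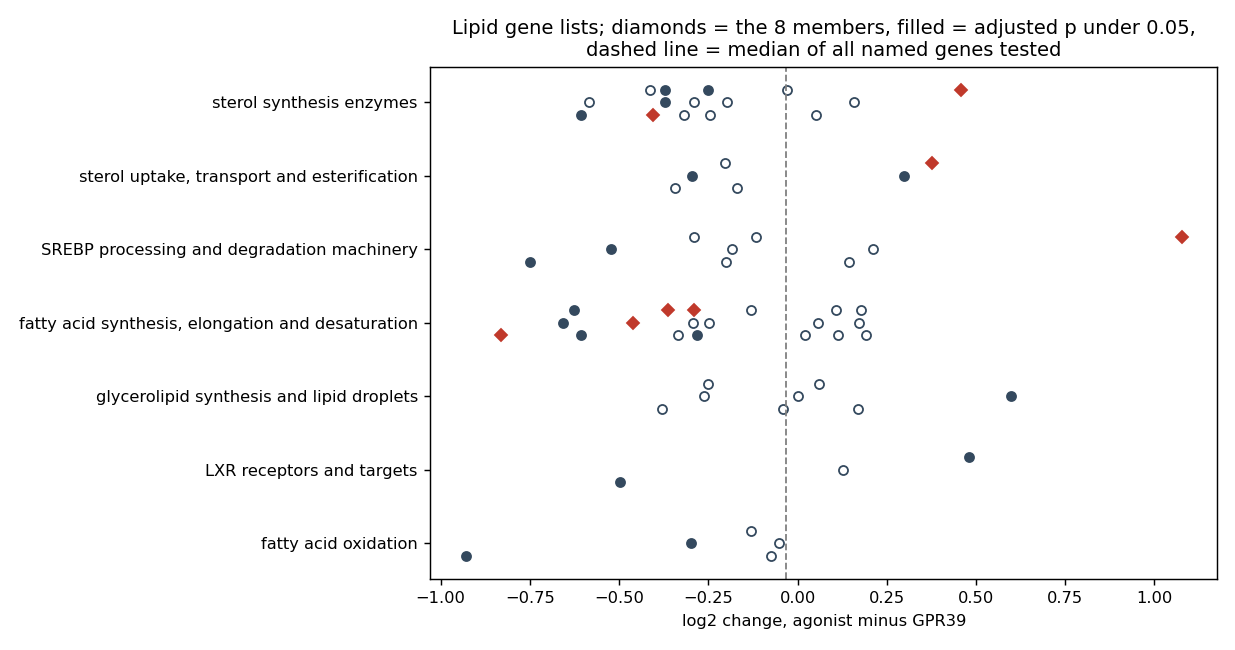
Each point is a tested gene of a lipid list, placed by its log2 change in agonist minus GPR39 (diamonds, the 8 members; filled, adjusted p under 0.05; dashed line, median of all named genes at -0.03). In the sterol synthesis list HMGCS1 is the filled point on the right, at 0.46, and the other 5 filled points lie on the left.

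Of the sterol synthesis enzymes, 15 of 22 could be tested. HMGCS1 was the member of this list that rose in agonist against GPR39, and 5 fell, which were SQLE, TM7SF2, EBP, MVK and LBR. Without HMGCS1 and SQLE, 4 of 13 fell and 0 rose, with a median of -0.29, where 9.68% of named genes were lower and 3.64% higher. TM7SF2, a sterol C14 reductase, measured 4.42, 4.35 and 4.14 in agonist, an identical 4.91 in the 3 GPR39 arrays, and 5.40, 5.27 and 4.93 in mock. It changed by -0.61 ± 0.13 against GPR39 (adjusted p = 0.0237) and by -0.90 ± 0.13 against mock (adjusted p = 0.00263). EBP, a sterol isomerase, and MVK, the mevalonate kinase, each changed by -0.37 ± 0.09 against GPR39 (adjusted p = 0.0369 and 0.0396). LBR, a nuclear membrane protein with sterol reductase activity, changed by -0.25 ± 0.06 (adjusted p = 0.0414). Against GPR39, each of these 4 calls was lost in at least 5 of the 9 fits without 1 array, with adjusted p up to 0.132. Against mock 8 fell, 7 of them outside the member set, and HMGCS1 rose, where 14.0% of named genes were lower and 7.82% higher. Among the 8, ACAT2, the cytosolic thiolase that opens the pathway, changed by -0.43 ± 0.08 (adjusted p = 0.00872), and HSD17B7, a sterol ketoreductase, by -0.86 ± 0.16 (adjusted p = 0.00813).

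Of the 6 tested genes of sterol uptake, transport and esterification, STARD4 and OSBP rose in agonist against GPR39 and STARD3 fell. Without STARD4 that was 1 higher and 1 lower of 5, beside 3.64% and 9.68% of named genes. OSBP, which exchanges cholesterol for phosphatidylinositol 4-phosphate at membrane contacts, measured 8.84, 8.84 and 8.83 in agonist, 8.59, 8.50 and 8.52 in GPR39, and 8.45, 8.48 and 8.48 in mock arrays. Its agonist arrays were above all others, and it rose by 0.30 ± 0.06 against GPR39 (adjusted p = 0.0180, lost without GPR39 replicate 2 or 3, up to 0.0753). STARD3, which tethers endosomes to the endoplasmic reticulum, changed by -0.29 ± 0.07 (adjusted p = 0.0299, lost in 6 of 9 fits without 1 array, up to 0.106). VLDLR, a lipoprotein receptor, and TMEM97, a regulator of NPC1, were lower in agonist than in mock, with changes of -1.07 ± 0.16 (adjusted p = 0.00338) and -0.52 ± 0.07 (adjusted p = 0.00192). In agonist against GPR39 neither passed (VLDLR -0.34 ± 0.16, adjusted p = 0.248, TMEM97 -0.17 ± 0.07, adjusted p = 0.183). GPR39 minus mock was -0.73 ± 0.16 for VLDLR (adjusted p = 0.0866) and -0.35 ± 0.07 for TMEM97 (adjusted p = 0.0630).

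The genes of the SREBP machinery did not move as one. SREBF1, which encodes SREBP-1, measured 4.44, 4.51 and 4.79 in agonist, an identical 4.44 in the 3 GPR39 arrays, and 4.21, 4.21 and 4.22 in mock. Its agonist arrays overlapped the GPR39 arrays, with a difference of 0.14 ± 0.09 (adjusted p = 0.413). SREBF2, for SREBP-2, measured 6.06, 6.04 and 6.23 in agonist, 6.31, 6.30 and 6.31 in GPR39, and 6.36, 6.38 and 6.39 in mock, and its difference against GPR39 was -0.20 ± 0.07 (adjusted p = 0.125). Against mock SREBF1 was 0.36 ± 0.09 higher (adjusted p = 0.0356) and SREBF2 differed by -0.27 ± 0.07 (adjusted p = 0.0351). Those 2 calls were lost in 7 and 8 of the 9 fits without 1 array, with adjusted p up to 0.0970 and 0.0991. SCAP overlapped in every comparison, with -0.12 ± 0.10 in agonist against GPR39 (adjusted p = 0.514).

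INSIG2, the other SCAP-retaining protein and not a classical SREBP target, moved opposite to INSIG1. It measured 6.78, 6.61 and 6.69 in agonist, 7.10, 7.21 and 7.33 in GPR39, and 7.70, 7.41 and 7.48 in mock arrays. The groups did not overlap, and agonist was lowest. INSIG2 changed by -0.52 ± 0.10 in agonist against GPR39 (adjusted p = 0.0169, lost without GPR39 replicate 2 or 3 or agonist replicate 2, up to 0.0660) and by -0.84 ± 0.10 against mock (adjusted p = 0.00119). ERLIN2, an endoplasmic reticulum protein that restrains SREBP activation, measured 5.40, 5.36 and 5.46 in agonist, 6.13, 6.23 and 6.11 in GPR39, and 6.60, 6.51 and 6.61 in mock. ERLIN2 fell in each comparison, with changes of -0.75 ± 0.07 in agonist against GPR39 (adjusted p = 0.000734), -1.17 ± 0.07 in agonist against mock (adjusted p = 3.12e-05) and -0.42 ± 0.07 in GPR39 against mock (adjusted p = 0.0307). The last of these was lost in 6 of 9 fits without 1 array (up to 0.131). RNF145, a ubiquitin ligase of the same membrane, was lower in agonist than in mock (-0.36 ± 0.09, adjusted p = 0.0332), a call lost in 7 of those 9 fits (up to 0.105).

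**Figure D4:**
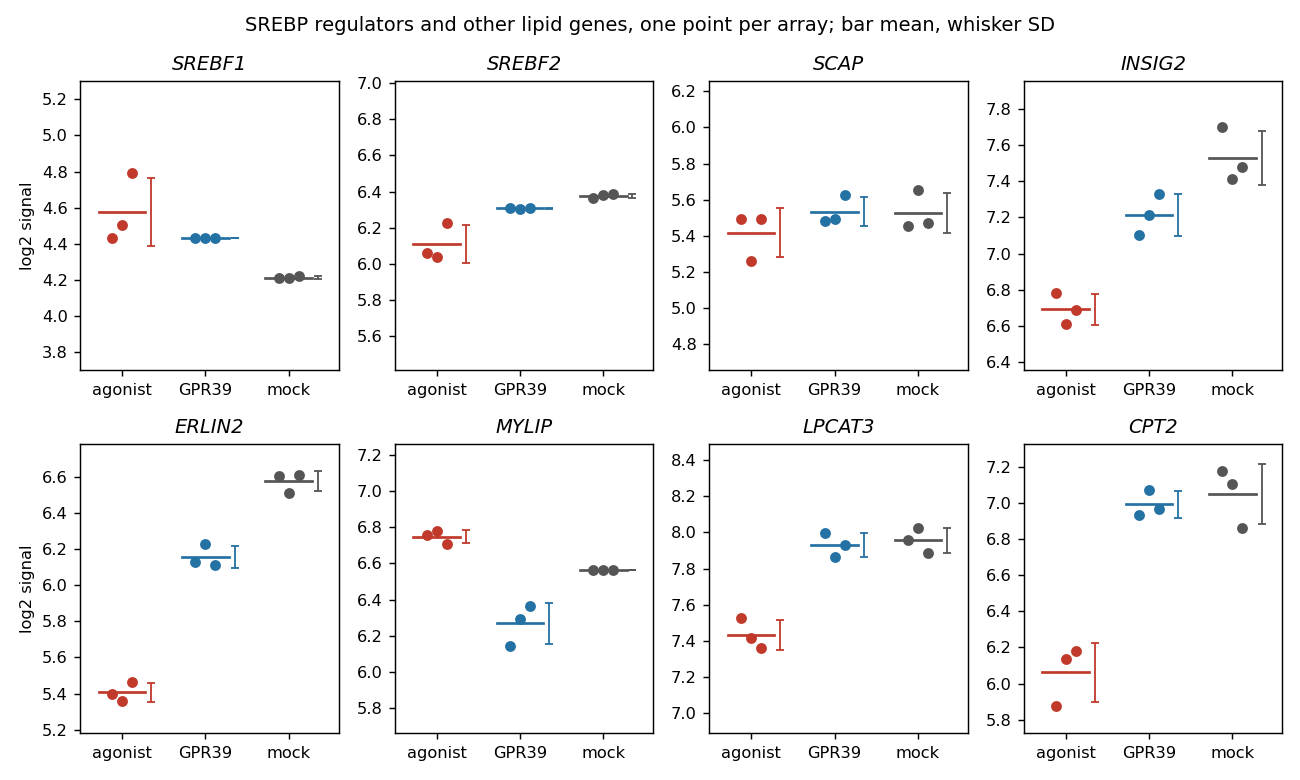
The log2 signal per array is plotted for SREBF1, SREBF2, SCAP, INSIG2, ERLIN2, MYLIP, LPCAT3 and CPT2 in the agonist, GPR39 and mock groups (points; bar, mean; whisker, SD, n = 3). Every vertical axis spans 1.6 log2 units. INSIG2, ERLIN2, LPCAT3 and CPT2 are lowest in the agonist arrays, and MYLIP is highest there.

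In the list of fatty acid synthesis, elongation and desaturation, 19 of 23 genes could be tested. In agonist against GPR39, 8 fell and none rose, where 9.68% of named genes were lower and 3.64% higher. Beside the 4 members these were ELOVL2, SCD5, MID1IP1 and FADS1, which made 4 of the 15 tested genes outside the set. FASN, the fatty acid synthase and a classical SREBP-1 target, was not among them. It measured 7.56, 7.58 and 7.58 in agonist, 7.52, 7.61 and 7.53 in GPR39, and 7.58, 7.63 and 7.64 in mock. Its groups overlapped, with a difference of 0.02 ± 0.06 in agonist against GPR39 (95% interval -0.12 to 0.16, adjusted p = 0.881) and -0.04 ± 0.06 against mock (adjusted p = 0.674). ACACA, the acetyl-CoA carboxylase, differed by -0.13 ± 0.11 against GPR39 (adjusted p = 0.524) and fell against mock (-0.59 ± 0.11, adjusted p = 0.00863).

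ELOVL2, an elongase of polyunsaturated fatty acids, measured 7.91, 7.85 and 7.83 in agonist, 8.46, 8.52 and 8.43 in GPR39, and 8.29, 8.22 and 8.22 in mock arrays. Here the GPR39 arrays were the highest. ELOVL2 fell by 0.61 ± 0.06 in agonist against GPR39 (adjusted p = 0.00138), and its difference of steps passed (-0.83 ± 0.11, adjusted p = 0.0164, lost without mock replicate 2 or any GPR39 array, up to 0.109). SCD5, a second delta-9 desaturase, changed by -0.63 ± 0.09 against GPR39 (adjusted p = 0.00510) and -0.98 ± 0.09 against mock (adjusted p = 0.000323). MID1IP1, an activator of acetyl-CoA carboxylase, fell at 1 probe set (-0.66 ± 0.08, adjusted p = 0.00246), and its other probe set did not pass (-0.09 ± 0.10, adjusted p = 0.635). FADS1, the delta-5 desaturase, changed by -0.28 ± 0.07 (adjusted p = 0.0423, lost in 7 of 9 fits without 1 array, up to 0.122). ACSL4, a ligase that activates arachidonate, rose by 0.58 ± 0.06 in GPR39 against mock (adjusted p = 0.00651). In agonist against GPR39 it differed by 0.19 ± 0.06 and did not pass (adjusted p = 0.115).

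Liver X receptor (LXR) targets are a further point of contact, since LXR induces SREBF1 and SCD. Only 3 genes of that list could be tested. Beside the counts in this paragraph, 3.64% of named genes were higher and 9.68% lower in agonist against GPR39. MYLIP, a ubiquitin ligase that degrades lipoprotein receptors, measured 6.76, 6.78 and 6.71 in agonist, 6.14, 6.29 and 6.36 in GPR39, and an identical 6.56 in the 3 mock arrays, and rose by 0.48 ± 0.07 against GPR39 (adjusted p = 0.00658). Against mock its 0.18 ± 0.07 did not pass (adjusted p = 0.137). LPCAT3, which loads polyunsaturated chains onto phospholipids, fell (-0.50 ± 0.07, adjusted p = 0.00640). Of 8 tested genes of glycerolipid synthesis and lipid droplets, 1 passed in agonist against GPR39, namely CHKA, the choline kinase, which rose (0.60 ± 0.11, adjusted p = 0.0125). Of 5 tested genes of fatty acid oxidation 2 fell, CPT2, the inner mitochondrial carnitine palmitoyltransferase (-0.93 ± 0.11, adjusted p = 0.00288, and -0.56 ± 0.10, adjusted p = 0.0143, at its other probe set), and ETFDH (-0.30 ± 0.06, adjusted p = 0.0227, lost in 5 of 9 fits without 1 array, up to 0.0840).

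Patterns most like those of INSIG1 and ELOVL6 were sought among the named probe sets, by Pearson correlation of log2 signal over the 9 arrays, as a description without a test. The 3 groups form clusters, so such values mostly follow the group means. Nearest to INSIG1 were DCLK1 (r = 0.985), TRMO (0.984) and POLN (0.982). DCLK1 measured 7.02, 7.17 and 6.87 in agonist, 5.26, 5.15 and 5.61 in GPR39, and 5.51, 5.37 and 5.32 in mock arrays, high in agonist and overlapping elsewhere. Nearest to ELOVL6 were TMEM237 (r = 0.993), TCTN2 (0.992) and RAD17 (0.992). TCTN2 measured 7.99, 7.93 and 7.85 in agonist, 8.72, 8.73 and 8.73 in GPR39, and 8.90, 8.85 and 8.81 in mock arrays, lowest in agonist and highest in mock, as ELOVL6 was.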

How the data were processed

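Total RNA of HEK293 cells was biotin-labelled and hybridised to single-colour Affymetrix arrays, per the labels' protocols. Each deposited value is the log2 signal of a probe set, judged from the range of 0.717 to 13.498, and MAS5 produced it, per the submitters' processing notes. Steps not given in the sources used here include any background correction, array normalization and log transform, and their effect on the values is unknown. They were used as deposited, with no pseudocount. Within a group, 8.59% of tested probe sets in agonist, 13.2% in GPR39 and 10.1% in mock had exactly equal values on at least 2 arrays, which makes their spread look small. No member had such a tie at the probe set used for it. Of all probe sets, 1318 repeat an earlier row exactly and were kept. Arrays give no read depth, and their number limits the precision.

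Gene names come from the platform annotation, and all 16098 named probe sets matched RefSeq by Entrez identifier. A probe set was tested where its signal exceeded the 40th percentile of the array (2.63 to 2.70) on at least 3 of 9 arrays. Using limma 3.58.1 (R 4.3.3), lmFit and eBayes were run on all 9 arrays (residual df 6, prior df 2.12), two-sided, with Benjamini-Hochberg adjustment over 33376 probe sets and a threshold of 0.05. A gene stands for its probe set with the highest mean. Errors after a log2 change are standard errors. The code was tested on simulated data.

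The genes named are the members, 8 pathway regulators and enzymes given by name, up to 6 further genes per pathway list with the smallest adjusted p among those called in a comparison, and the 3 genes most like INSIG1 and ELOVL6. The text gives some of them by value. Members, lists and tests were chosen with earlier results of these data known. Alternatives were quantile normalization, centring on the 75th percentile or median, other filters, an intensity trend with robust eBayes, 2-group fits, a replicate block, the mean over probe sets, and each array left out.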

Additional observations from a re-analysis of the deposited data

How the results depend on the processing

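INSIG1, SQLE, SCD and ELOVL6 passed against GPR39 and against mock in the agonist arrays under all alternatives run, with log2 changes against GPR39 of 1.01 to 1.17, -0.45 to -0.39, -0.52 to -0.35 and -0.88 to -0.79. Of the other member changes against GPR39, HMGCS1 passed in 14 of 18 settings, STARD4 in 16, ACLY in 12 and FADS2 in 10. Against mock, STARD4 passed in 7 of 18 settings and ACLY in 13, and HMGCS1 and FADS2 in all 18. Members called against GPR39 numbered 4 to 8 with 1 array left out, and 6 to 8 against mock. The SCD call of GPR39 against mock gave 0 members called under centring on the 75th percentile or the median, without a filter, with only 2 groups fitted and with the mean over probe sets, and 0 to 1 with 1 array left out. For the difference of steps, 2 members (INSIG1 and ELOVL6) were called under centring on the median, the filter at the 60th percentile and the trended robust fit, and 0 to 1 with 1 array left out. ACLY in GPR39 against mock ran from -0.0063, without mock replicate 3, to 0.0758 with 1 array left out. The SCD difference of steps ran from -0.1723 to 0.0333, without GPR39 replicate 2, and was 0.0088 with the mean over probe sets, all uncalled.

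Over all probe sets, the 3025 calls of agonist against GPR39 ranged from 1509 to 3119 with 1 array left out. The 391 calls of GPR39 against mock became 637 with the filter at the 60th percentile, 663 with the trended robust fit, 190 with only 2 groups fitted and 108 to 1323 with 1 array left out, the highest without mock replicate 1. The 5022 calls of agonist against mock became 3133 with only 2 groups fitted and 3493 to 4947 with 1 array left out. Centring on the 75th percentile brought the share of calls that were higher to 56.2%, against 40.6% as deposited, for agonist against mock, and to 74.7%, against 63.9%, for GPR39 against mock. Without mock replicate 1 the share for GPR39 against mock was 31.4%, with 416 calls higher and 907 lower. The causes of these shifts were not tested.

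Same-numbered arrays of different groups deviated from their group means with correlations of -0.101 to 0.065. Differently numbered arrays gave -0.129 to 0.119. These values give no sign that the numbers pair the arrays, and with 3 arrays in a group they cannot exclude it. With the replicate number as a block, calls were 1819 in agonist against GPR39, 150 in GPR39 against mock, and 3955 for agonist against mock. Members called with the block were 4, 0 and 7 (without STARD4) in these comparisons and 0 for the difference of steps. The pseudocount alternative did not apply to log2 values, and a 2-group fit cannot give the difference of steps.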
